A study of Mus musculus with 56 samples.

Results

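Kidney transcriptomes were compared between mice that had just reached the end of their food window at opposite light transitions. The mice of 1 group had food only in the day (daytime-restricted feeding, DRF), so that zeitgeber time (ZT, hours after lights on) 12 closed their meal at lights off. The others had food only in the night (nighttime-restricted feeding, NRF), so that ZT0 or ZT24 closed their meal at lights on. These 3 groups, DRF ZT12, NRF ZT0 and NRF ZT24, were defined by their labels. They held 12 of the 56 libraries of the series, 4 in each group. The comparison was chosen with earlier results of these data known. All mice were female C57BL/6J, 9 weeks old at collection, had been kept in a light-dark cycle and had followed their regimen for 7 days on normal chow, and the labels give no genetic change and no drug. Poly(A) RNA of kidney was sequenced. The p-values of single genes measure the spread between libraries of a group, estimated over all 56 libraries of the series. NRF ZT0 and ZT24 are the same light transition a day apart and were pooled as NRF ZT0/24 (n = 8), and each comparison was repeated against NRF ZT24 alone because interferon-linked genes stood high in NRF ZT0. The NRF libraries at ZT12 (n = 4, the same clock time as DRF ZT12 but the end of the fast) and the DRF libraries at ZT0 and ZT24 (n = 8, end of the fast) served for reference.

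Cells of the kidney carry a circadian clock in which CLOCK or NPAS2 pairs with ARNTL (BMAL1) and switches on the Per and Cry repressors, the Nr1d and Ror receptors and the PAR bZIP factors Dbp, Tef and Hlf, which in turn drive many output genes. The central clock follows light, whereas peripheral tissues also read food, adrenal glucocorticoids and body temperature. A gene that follows only the meal should have the same level at both meal ends. A gene that follows the light cycle can differ between them, but one that passes through like levels at ZT0 and ZT12 would not, so equal levels do not tell these cases apart. The comparison asks which genes differed between the meal ends.

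Levels are given in CPM, reads per 1000000 of the library's effective size, and a difference is that of group means in log2(CPM + 1), DRF ZT12 minus NRF ZT0/24, with its standard error, and an interval is the 95% interval of that difference. A gene was called at a Benjamini-Hochberg adjusted p under 0.05 in limma, fitted to all 14 groups of the series. Of 13223 genes tested, 2265 (17.1%) differed between the meal ends, 1075 (8.13%) higher and 1190 (9%) lower in DRF ZT12. Most differences were small: 446 genes (3.37%) were called and at least 1.5-fold apart, and 11431 genes (86.4%) had a 95% interval inside 1.5-fold. Against NRF ZT24 alone 1472 of the called genes (11.1% of the genes tested) were called again with the same sign, and 1031 (7.8% of the genes tested) were called against NRF ZT24 and NRF ZT0 each on its own. The balance of directions depended on the scaling: 552 genes were higher and 1703 lower when the values were scaled as log2(TPM + 1). Without DRF ZT12 library 4 the counts were 663 higher and 863 lower.

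Core clock genes differed widely between the meal ends, in both directions. Of 19 clock genes tested, 13 were higher and 4 lower in DRF ZT12, beside 8.13% and 9% of all genes. Arntl, the partner of CLOCK, had 6.80, 8.75, 9.64 and 11.3 CPM in the 4 DRF ZT12 libraries and 47.01 to 52.5 CPM (median 51.1) in the 8 NRF libraries at the meal end. Npas2, the alternative partner of ARNTL, had 1.74, 1.69, 1.52 and 1.81 CPM against 25.2 to 29.8 CPM (median 29.05). For both genes every DRF ZT12 library lay far below every NRF library, and the NRF libraries hardly varied. The differences were -2.36 ± 0.17 (adjusted p = 6.44e-15) and -3.45 ± 0.16 (adjusted p = 1.16e-21), and Clock itself was lower by a smaller amount, -0.37 ± 0.08 (adjusted p = 0.000683). At NRF ZT12, the end of the fast at the same clock time, Arntl was at 1.48 ± 1.01 CPM (SD, n = 4), so DRF ZT12 stood between the NRF levels of ZT12 and ZT0/24. DRF ZT12 minus NRF ZT12 was 2.09 ± 0.20 (adjusted p = 2.40e-10) for Arntl and 0.64 ± 0.18 (adjusted p = 0.00785) for Npas2.

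The repressor arm stood on the other side: all 8 repressors tested were higher in DRF ZT12, and in each the 4 libraries lay above all 8 NRF libraries, as was so for 5.77% of all genes. Per2 had 103, 104, 86.7 and 136 CPM against 11.1 to 17.7 CPM (median 12.7), a difference of 2.93 ± 0.15 (adjusted p = 1.47e-19). Per1, which also answers to glucocorticoids, had 74.2, 91.5, 72.7 and 96.4 CPM against 8.79 to 21.4 CPM (median 11.7), and Per3 had 88.3, 76.2, 82.5 and 67.1 CPM against 7.22 to 14.3 CPM (median 10.2). The differences were 2.66 ± 0.24 for Per1 and 2.81 ± 0.19 for Per3, and 1 NRF ZT0 library (21.4 CPM) was the highest of the NRF libraries for Per1. For each of the 3 Per genes the lowest DRF ZT12 library lay far above the highest NRF library. Cry2 rose by 1.24 ± 0.11 and Cry1, the late repressor, by 0.76 ± 0.17. Ciart, a repressor of CLOCK-ARNTL, had 7.03, 6.64, 5.75 and 7.56 CPM against 1.03 to 1.76 CPM (median 1.33), a difference of 1.73 ± 0.16. Bhlhe41 (DEC2) rose by 0.75 ± 0.17, whereas Bhlhe40 (DEC1) rose by 0.46 ± 0.15 (adjusted p = 0.0248) but missed the threshold against NRF ZT0 alone (0.38, adjusted p = 0.139), with log2(TPM + 1) scaling and without DRF ZT12 library 3 or 4. Against NRF ZT12 the same repressors had differences of both signs, from -1.93 for Ciart to 0.64 for Cry1, and for Per2 the difference was 0.20 ± 0.18 with a 95% interval of -0.16 to 0.56.

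Dbp (Entrez 13170, chr7:45705088-45710203 in GRCm38), a PAR bZIP activator, had the largest rise of the clock genes. Its levels were 64.2, 43.001, 53.1 and 34.7 CPM in DRF ZT12 and 0.932 to 2.66 CPM (median 1.78) in the NRF libraries, a difference of 4.17 ± 0.28 (adjusted p = 6.53e-16). At NRF ZT12 it stood at 218 ± 21.99 CPM, so DRF ZT12 minus NRF ZT12 was -2.17 ± 0.32 (adjusted p = 2.47e-06). Tef and Hlf, of the same family, had 398, 370.5, 361 and 377 CPM and 206, 223, 183 and 269.8 CPM, against 79.95 to 125 CPM (median 94.9) and 83.2 to 103 CPM (median 93.05). Both genes were higher in every DRF ZT12 library than in any NRF library. Nfil3, which competes for the sites of the PAR bZIP factors, went the other way, with 14.7, 19.1, 16.4 and 24.9 CPM against 31.8 to 37.2 CPM (median 35.4), a difference of -0.89 ± 0.16 (adjusted p = 4.67e-05). The nuclear receptors were split, with Nr1d1 and Nr1d2 (REV-ERBα and REV-ERBβ), known as repressors of Arntl, behaving differently in the calls. Nr1d2 had 119.5, 113, 106 and 87.7 CPM against 14.9 to 30.1 CPM (median 20.2), a difference of 2.35 ± 0.12 (adjusted p = 4.79e-20), whereas Nr1d1 had 33.3, 25.8, 34.2 and 16.04 CPM against 11.3 to 34.1 CPM (median 19.7) and overlapped with them. The interval for Nr1d1 was -0.02 to 0.83 (adjusted p = 0.196), which holds no change as well as a 1.5-fold rise. At NRF ZT12 Nr1d1 was at 95.9 ± 6.81 CPM, and the DRF ZT12 libraries were below it by a difference of -1.83 ± 0.24 (adjusted p = 3.38e-07). Rora, a ROR activator, had an interval of -0.05 to 0.23. Reads of Dbp and Nr1d1 were partly split with other sequences by the authors' counting, so the sizes of their differences are uncertain.

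**Figure D1:**
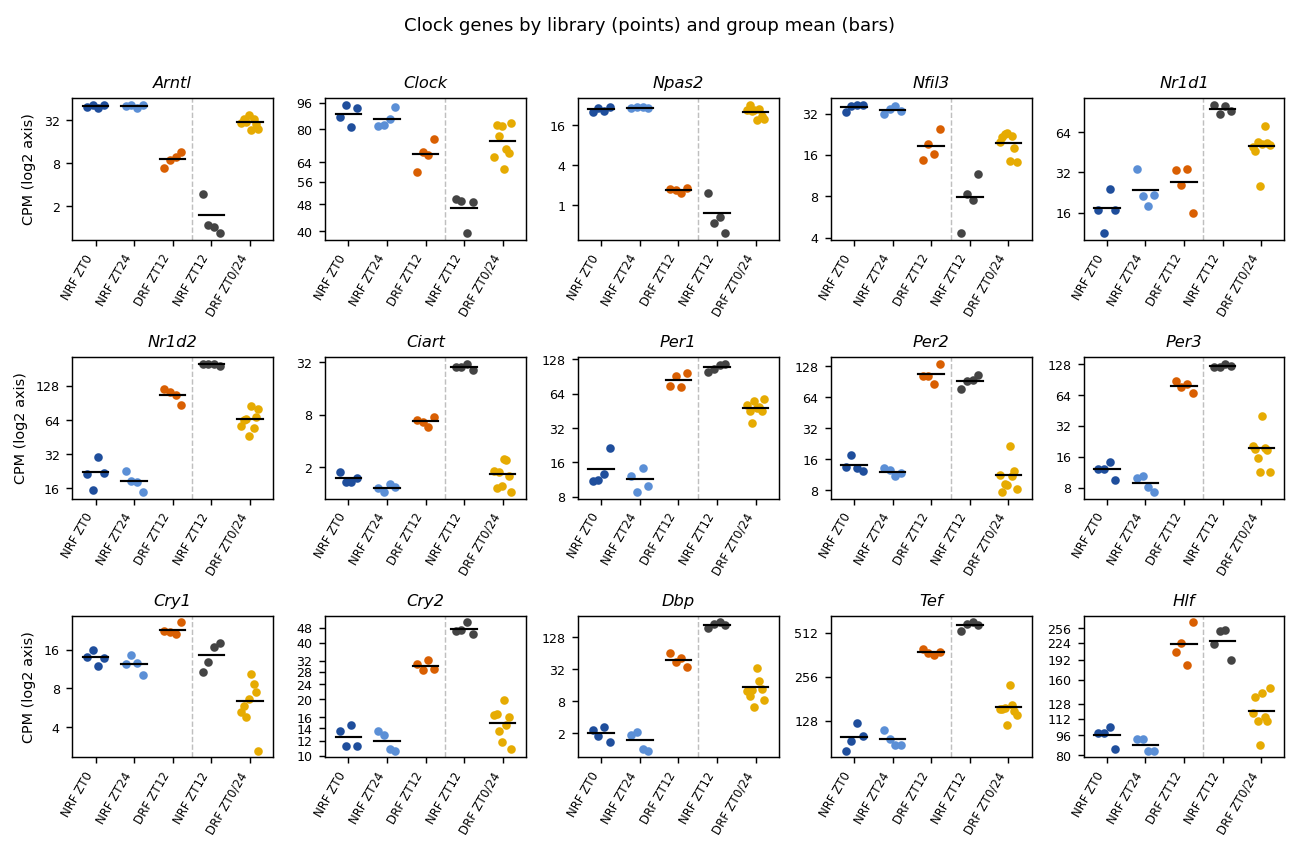
Level of 15 clock genes in CPM on a log2 axis, 1 point per library and a bar at the group mean, for NRF ZT0, NRF ZT24 and DRF ZT12 (left of the dashed line, the ends of the food window) and for NRF ZT12 and DRF ZT0/24 (right, the ends of the fast). The DRF ZT12 libraries of Arntl (6.80 to 11.3 CPM) lie below and those of Per2 (86.7 to 136 CPM) above all 8 NRF libraries at the meal end, and those of Nr1d1 (16.04 to 34.2 CPM) overlap with them.

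The upstream sequences of the clock genes that moved together were read from RefSeq promoters (GRCm38.p6), 250 bases before each gene start, because CLOCK-ARNTL is known to bind the E-box CACGTG, PAR bZIP factors and NFIL3 the D-box TTATGNAA, and REV-ERB and ROR the element TAGGTCA. Both strands were searched, and the motifs do not overlap in these windows. Promoters were listed for 16 of the 19 clock genes tested, and Per1, Tef, Arntl and Clock had more than 1 start. CACGTG stood before at least 1 start of 5 of the 10 genes that rose and had a promoter (Per1, Cry1, Ciart, Bhlhe41 and Tef), beside 6.02% of all promoters. The shares of all promoters count each start singly, whereas a gene with more than 1 start had more windows in which to match. TTATGNAA stood before Per1 and Per3, beside 3.07% of all promoters, and TAGGTCA before Nfil3 alone of the 16, beside 2.23%. Dbp, Nr1d1, Nr1d2, Rora, Hlf, Cry2, Arntl, Clock and Npas2 had none of the 3 in this window, which says only that these letters were not there. A match is a run of letters and no measured site. The windows of 5 genes that rose are shown with matches in capitals, 5′ to 3′ along the gene, to let the E-box of Per1, Cry1, Ciart (3 copies) and Tef be seen beside the D-boxes of Per1 and Per3. They lie at: Per1 chr11:69098699-69098948, plus strand, Per3 chr4:151044666-151044915, minus strand, Cry1 chr10:85185055-85185304, minus strand, Ciart chr3:95882229-95882478, minus strand, Tef chr15:81802423-81802672, plus strand.
Per1: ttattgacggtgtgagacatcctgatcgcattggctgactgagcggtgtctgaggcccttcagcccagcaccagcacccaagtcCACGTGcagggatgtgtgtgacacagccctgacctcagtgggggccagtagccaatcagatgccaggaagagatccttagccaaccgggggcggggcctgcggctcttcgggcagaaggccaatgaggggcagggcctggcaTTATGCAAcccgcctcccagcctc
Per3: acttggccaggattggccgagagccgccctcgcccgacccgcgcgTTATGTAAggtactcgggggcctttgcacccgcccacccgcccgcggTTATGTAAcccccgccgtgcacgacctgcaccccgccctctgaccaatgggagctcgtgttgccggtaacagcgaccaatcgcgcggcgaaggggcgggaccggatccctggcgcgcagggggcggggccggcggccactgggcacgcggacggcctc
Cry1: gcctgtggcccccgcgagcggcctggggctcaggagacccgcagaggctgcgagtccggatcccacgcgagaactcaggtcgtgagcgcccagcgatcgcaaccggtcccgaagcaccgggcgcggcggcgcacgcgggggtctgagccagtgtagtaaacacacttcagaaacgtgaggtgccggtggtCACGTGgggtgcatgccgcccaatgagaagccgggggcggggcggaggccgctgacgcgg
Ciart: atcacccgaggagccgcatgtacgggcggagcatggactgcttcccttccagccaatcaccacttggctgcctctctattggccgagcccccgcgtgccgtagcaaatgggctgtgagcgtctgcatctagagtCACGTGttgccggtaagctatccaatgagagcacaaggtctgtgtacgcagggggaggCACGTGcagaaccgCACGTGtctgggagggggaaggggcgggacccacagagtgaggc
Tef: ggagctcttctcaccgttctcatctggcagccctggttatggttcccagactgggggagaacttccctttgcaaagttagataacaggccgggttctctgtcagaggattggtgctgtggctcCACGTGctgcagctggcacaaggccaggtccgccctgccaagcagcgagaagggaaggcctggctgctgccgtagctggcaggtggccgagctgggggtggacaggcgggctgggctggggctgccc

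Genes known as clock output were mostly higher in DRF ZT12. Of 11 clock-linked output genes tested, 6 rose and 1 fell, beside 8.13% and 9% of all genes, with a median difference of 0.58 beside 0.00600 over all genes. Usp2, a deubiquitinase tied to the PER proteins, had 228, 267, 235 and 321 CPM against 62.3 to 78.6 CPM (median 66.99), a difference of 1.92 ± 0.13 (adjusted p = 1.84e-15). Every DRF ZT12 library lay above every NRF library. Wee1, a cell cycle kinase, and Tspan4 rose by 1.11 ± 0.10 and 0.96 ± 0.10, and the Tspan4 reads were partly split with other sequences in the counting. Gpr146 had 47.4, 47.3, 46.6 and 40.4 CPM against 39.02 to 49.6 CPM (median 43.2), with an interval of -0.14 to 0.23, and the groups overlapped. Among the 24 genes named for their size (12 in each direction, at least 10 CPM, called against NRF ZT24 and NRF ZT0 alone, groups not overlapping, and ordered by the difference), 6 of the rises and 2 of the falls were clock genes. The other rises held Noct, the deadenylase nocturnin, with 52.99, 86.2, 43.2 and 194 CPM against 13.8 to 20.3 CPM (median 17.97). DRF ZT12 library 4 was the highest of the group for Noct, and the other 3 still lay above all NRF libraries. Susd3 rose by 1.97 ± 0.15 and Nat8f5, of the Nat8 acetyltransferase family, by 2.89 ± 0.27. Nat8f5 had 32.96, 29.4, 40.3 and 33.5 CPM against 2.21 to 5.15 CPM (median 3.90), and DRF ZT12 was also above NRF ZT12 (12.9 ± 5.67 CPM, SD, n = 4) by 1.44 ± 0.31 (adjusted p = 0.000478).

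The falls after Npas2 and Arntl held a nuclear receptor, a transporter and a vasopressin receptor. Ppard (PPARδ) had 37.6, 36.01, 35.7 and 53.7 CPM against 128 to 251 CPM (median 159), a difference of -2.03 ± 0.16 (adjusted p = 1.15e-13). Slc16a1 (MCT1), which carries lactate and ketone bodies, had 37.99, 39.1, 35.6 and 61.8 CPM against 86.1 to 118 CPM (median 102), a difference of -1.25 ± 0.15 (adjusted p = 2.03e-08). For both genes DRF ZT12 library 4 was the highest of its group and still below every NRF library. Loxl4, a lysyl oxidase, had 5.97, 6.18, 9.79 and 7.36 CPM against 28.4 to 55.6 CPM (median 31.3), a difference of -2.14 ± 0.32 (adjusted p = 2.10e-06). Ypel2, Palm3 and Rtl6 fell with differences of -1.78 ± 0.10, -1.20 ± 0.12 and -1.15 ± 0.08. Avpr1a, the V1a vasopressin receptor, had 8.73, 9.79, 10.3 and 11.6 CPM against 22.3 to 31.9 CPM (median 24.9), a difference of -1.26 ± 0.12 (adjusted p = 3.14e-11), with no overlap. Clec2h fell by 1.15 ± 0.27 and was also lower against NRF ZT12, at -1.30 ± 0.31. Gbp6 and Lgals3bp, 2 interferon-linked genes, were also among these falls and are described with that list.

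Many targets of glucocorticoids were higher at the meal end in DRF. Of 17 targets tested, 11 rose and 1 fell, beside 8.13% and 9% of all genes, with a median of 0.59, and 9 of the rises were called against NRF ZT24 and NRF ZT0 alone (background 3.78%). Fkbp5, a chaperone of the glucocorticoid receptor, had 71.7, 115, 78.4 and 169.7 CPM against 21.96 to 35.5 CPM (median 25.1), a difference of 1.96 ± 0.26 (adjusted p = 1.58e-07). Zbtb16 (PLZF) had 30.1, 35.7, 18.1 and 70.4 CPM against 1.54 to 3.74 CPM (median 2.59), a difference of 3.30 ± 0.41 (adjusted p = 4.15e-08), and Tsc22d3 (GILZ) had 123, 157, 104 and 165 CPM against 25.5 to 45.5 CPM (median 33.2), a difference of 1.96 ± 0.16. In all of these the DRF ZT12 libraries lay above the NRF libraries but differed widely among themselves, and library 4 was the highest. Sgk1, the kinase that raises sodium channel activity, had 521, 678, 349.6 and 849 CPM against 114 to 213 CPM (median 158), a difference of 1.88 ± 0.28 (adjusted p = 2.31e-06), again with library 4 highest and no overlap. Leaving out DRF ZT12 library 4, 9 of 17 were called higher, and the Sgk1 difference was 1.69. The receptor gene itself, Nr3c1, was lower, with 124, 120.5, 120.1 and 116 CPM against 126 to 144 CPM (median 134), a difference of -0.16 ± 0.06 (adjusted p = 0.0443), a difference inside 1.5-fold that was not called against NRF ZT24 alone (adjusted p = 0.341) or with most single libraries left out. Cdkn1a overlapped between the groups, with an interval of -0.38 to 0.48. At the same clock time the list was mixed, with 5 targets higher and 3 lower than in NRF ZT12 (background 13% and 11.1%). Sgk1 was among the higher ones, at 1.41 ± 0.33 (adjusted p = 0.00114), whereas for Fkbp5 the difference was 0.52 ± 0.30 with an interval of -0.08 to 1.11.

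Some genes of fatty acid oxidation and PPARA targets, which rise in fasting, were also higher at the DRF meal end, and others were not called. Of 31 tested, 14 rose, beside 8.13% of all genes, and the median over the list was 0.28. Against NRF ZT24 and NRF ZT0 alone, 10 rises were called, beside 3.78% of all genes. Angptl4, an inhibitor of lipoprotein lipase, had 21.3, 26.2, 11.8 and 25.4 CPM against 2.95 to 9.36 CPM (median 4.75), a difference of 1.86 ± 0.35 (adjusted p = 0.000118). Cyp4a14, a fatty acid omega-hydroxylase, had 1231, 1052, 1387 and 1442 CPM against 488 to 758 CPM (median 604), a difference of 1.03 ± 0.15 (adjusted p = 2.01e-06). In both, all DRF ZT12 libraries lay above all NRF libraries. Pdk4, the kinase that holds back pyruvate dehydrogenase and also a member of the glucocorticoid list, had 13.8, 16.4, 16.6 and 16.1 CPM against 22.1 to 42.5 CPM (median 25.3), all DRF ZT12 libraries below all NRF libraries. Its difference of -0.72 ± 0.27 (adjusted p = 0.0658) was not called, but was called lower with only the 12 libraries in the fit. Hadha and Etfdh of the oxidation machinery had intervals of -0.04 to 0.14 and -0.15 to 0.13. Against NRF ZT12, the fasted mice at the same clock time, 13 of the 31 were lower, with a median of -0.27, beside 11.1% of all genes lower. Within NRF, 25 of the 31 were higher at ZT12 than at ZT0/24, beside 17.4% of all genes. Cpt1a, the entry step of mitochondrial fatty acid oxidation, was the gene over 100 CPM that rose most from NRF ZT0/24 to NRF ZT12 (by 1.07 ± 0.08) while its meal-end interval stayed inside 1.5-fold (0.03 to 0.36, adjusted p = 0.0926). Its levels were 372, 372, 364 and 378 CPM in DRF ZT12, 285 to 372 CPM (median 322) in the NRF libraries and 685 ± 57.4 CPM (SD) at NRF ZT12.

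Among glucose and insulin-linked genes, single enzymes and regulators rose. Of 13 genes of gluconeogenesis and glycolysis control, 3 rose, beside 8.13% of all genes. Pck1, the PEPCK of renal gluconeogenesis, had 6532, 7295, 7558 and 9394 CPM against 2633 to 4981 CPM (median 4346), a difference of 0.90 ± 0.20 (adjusted p = 0.00113). The DRF ZT12 libraries all lay above the NRF libraries. Slc37a4, the glucose-6-phosphate carrier, rose by 0.55 ± 0.13, and Got1 by 0.17 ± 0.06, a call that was lost against either NRF group alone. Mdh1 and Pfkfb2 had intervals of -0.11 to 0.24 and -0.17 to 0.06. Of 19 insulin- and FOXO-responsive genes, 4 rose and 2 fell, beside 8.13% and 9% of all genes. Foxo3 had 138, 178, 150.3 and 189.6 CPM against 78.4 to 94.6 CPM (median 85.5), a difference of 0.91 ± 0.10 (adjusted p = 6.89e-09), and Foxo1 and Klf15 rose by 0.47 ± 0.07 and 0.84 ± 0.16, with no overlap for Foxo3. Cited2 fell, with 56.6, 60.1, 58.99 and 56.7 CPM against 86.2 to 120.0 CPM (median 106), a difference of -0.84 ± 0.07 (adjusted p = 4.63e-12), and the groups did not overlap. The insulin receptor gene Insr and the coactivator Ppargc1a had intervals of -0.0041 to 0.21 and -0.25 to 0.13. Txnip, which is sensitive to glucose, had 269.8, 276, 222 and 284 CPM against 216 to 317 CPM (median 295), overlapping, and 552 ± 92.1 CPM (SD) at NRF ZT12.

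Sterol synthesis genes were called between the meal ends about as often as all genes, but every call was a fall. Many were higher than at the same clock time under NRF. Of 25 cholesterol synthesis genes, 5 (20%) fell and 0 rose, beside 9% and 8.13% of all genes. The share called in either direction was close to the 17.1% of all genes. An interval inside 1.5-fold was found for 21 of 25, beside 86.4% of all genes. At the same clock time 14 of the 25 were higher in DRF ZT12 than in NRF ZT12, beside 13% of all genes. Idi1, an isomerase of the pathway, had 57.8, 66.4, 60.4 and 70.2 CPM in DRF ZT12, 70.7 to 100.0 CPM (median 82.2) at the NRF meal end and 36.6 ± 2.45 CPM (SD) at NRF ZT12. The DRF ZT12 libraries lay just below the NRF meal-end range and well above the fasted group, and the counting split part of the Idi1 reads with other sequences. The differences were -0.36 ± 0.12 (adjusted p = 0.0294) at the meal end and 0.78 ± 0.14 (adjusted p = 4.22e-05) at the same clock time. Fdps had a meal-end difference of -0.33 ± 0.10, and the Idi1 and Fdps calls were lost against NRF ZT24 alone. Srebf2, the regulator of the pathway, was lower with 104, 102, 107 and 98.8 CPM against 118 to 132 CPM (median 130.3), a difference of -0.31 ± 0.07 (adjusted p = 0.000948), also against NRF ZT24 alone (adjusted p = 0.00435), with no overlap. Sc5d and Hsd17b7 had the narrowest intervals of the list, -0.17 to 0.17 and -0.17 to 0.16. Without DRF ZT12 library 3 the fall was called for 1 member, without library 4 for 3, and without the NRF ZT24 library whose number is in no label for 3.

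Of 18 fatty acid synthesis genes, 2 rose at the meal end, Srebf1 and Acss2, beside 8.13% of all genes, and 12 had an interval inside 1.5-fold, beside 86.4%. Srebf1, which drives lipid synthesis after feeding, had 102, 93.9, 124 and 107 CPM against 74.1 to 90.7 CPM (median 81.4), a difference of 0.38 ± 0.13 (adjusted p = 0.0305), with no overlap, and stood at 50.7 ± 13.7 CPM (SD) at NRF ZT12. The Srebf1 and Acss2 calls were lost against either NRF group alone, without DRF ZT12 library 4 and with log2(TPM + 1) scaling, and for Srebf1 also without DRF ZT12 library 3, NRF ZT0 library 3 or NRF ZT24 library 1. Scd2, a desaturase, was the gene over 100 CPM that fell most from NRF ZT0/24 to NRF ZT12 (-1.22 ± 0.13) with a meal-end interval inside 1.5-fold (-0.26 to 0.27). It had 302, 302, 265 and 315 CPM in DRF ZT12, 232 to 359.8 CPM (median 299.5) in the NRF meal-end libraries and 127 ± 23.1 CPM (SD) at NRF ZT12. DRF ZT12 and the NRF meal-end libraries overlapped throughout, and DRF ZT12 minus NRF ZT12 was 1.23 ± 0.15 (adjusted p = 8.47e-08). Acsl3 and Elovl5 had meal-end intervals of -0.16 to 0.18 and -0.05 to 0.20, and the Acsl3 reads were partly split in the counting.

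**Figure D2:**
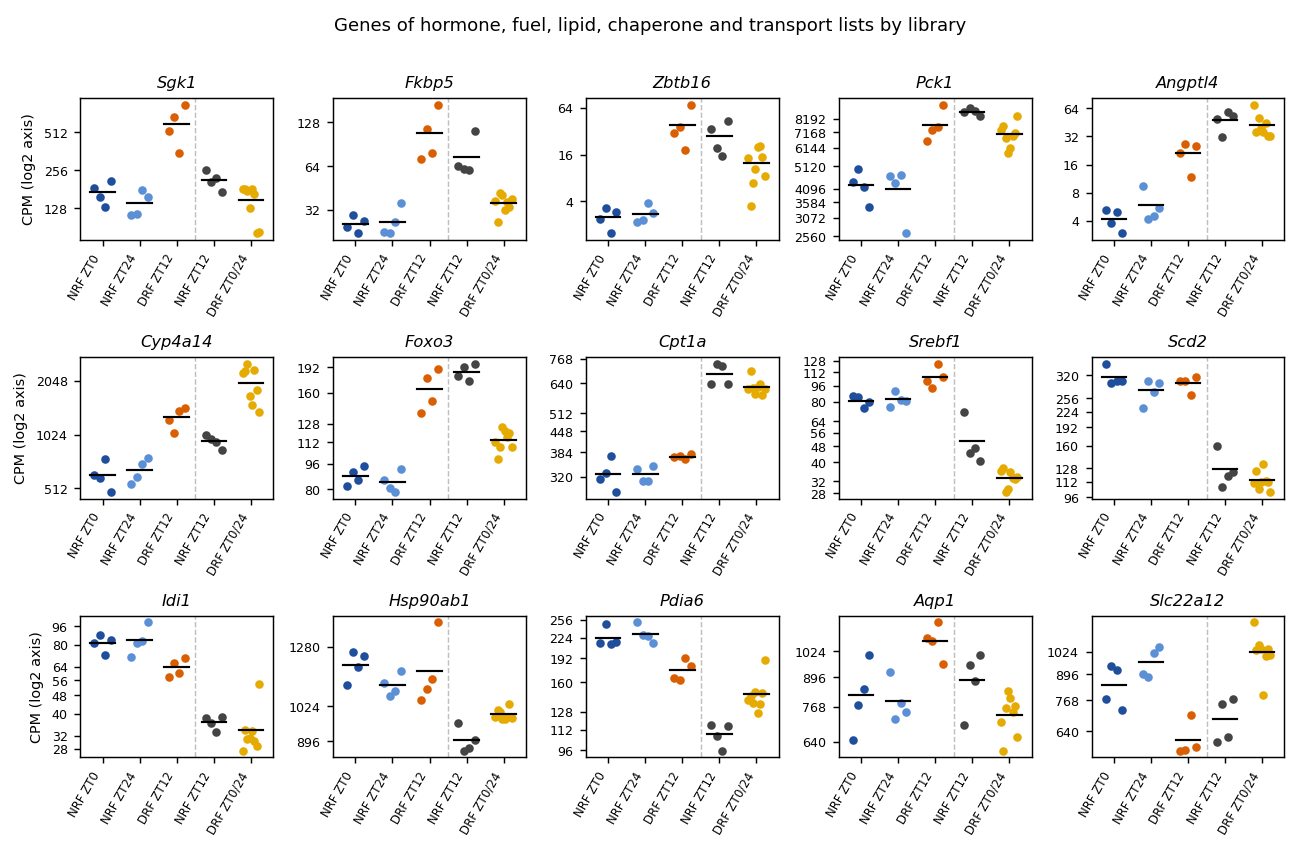
Level of 15 genes in CPM on a log2 axis, 1 point per library and a bar at the group mean, in the 3 groups at the end of the food window (left of the dashed line) and in NRF ZT12 and DRF ZT0/24 at the end of the fast (right). Scd2 in DRF ZT12 (265 to 315 CPM) lies with the NRF meal-end libraries and apart from NRF ZT12 (106 to 159.8 CPM), whereas Sgk1 (349.6 to 849 CPM) lies above every other library shown.

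Heat shock genes had few calls between the meal ends, whereas 40.9% of the list of ER chaperones was called, beside 17.1% of all genes. Both lists had more calls at the same clock time. Of 20 heat shock and cold-inducible genes, 2 rose at the meal end, beside 8.13% of all genes. At the same clock time 12 were higher and 2 lower than in NRF ZT12, beside 13% and 11.1% of all genes. The median difference was 0.03 at the meal end and 0.46 at the same clock time. Hsp90ab1 had 1048, 1091, 1135 and 1404 CPM against 1064 to 1257 CPM (median 1144), an interval of -0.10 to 0.13, and 900.4 ± 43.8 CPM (SD) at NRF ZT12 (adjusted p = 4.62e-05 for DRF ZT12 minus NRF ZT12). The meal-end groups overlapped. The members that rose were Hspa1a, whose call was lost against NRF ZT0 alone and without any of 6 single libraries and whose reads were partly split with other sequences in the counting, and Rbm3. Rbm3, a protein induced by cooling, had 131, 113, 121 and 126 CPM against 58.96 to 75.4 CPM (median 68.5), a difference of 0.83 ± 0.09 (adjusted p = 1.09e-09), and was at 151 ± 14.1 CPM (SD) at NRF ZT12. Of 22 ER chaperones and stress genes, 3 rose and 6 fell at the meal end (background 8.13% and 9%), and 14 were higher and 1 lower at the same clock time (background 13% and 11.1%). Herpud1, of ER-associated degradation, departed from the rest with 309.8, 369.6, 279.8 and 404 CPM against 118 to 179 CPM (median 139), a difference of 1.25 ± 0.12 (adjusted p = 1.24e-10) and no overlap. Pdia6 and Calr, a disulfide isomerase and calreticulin, had differences of -0.37 ± 0.08 (adjusted p = 0.000509) and -0.33 ± 0.09 (adjusted p = 0.00772) at the meal end, against 0.69 ± 0.09 and 0.70 ± 0.11 at the same clock time. Without DRF ZT12 library 2 the ER counts were 2 higher and 2 lower, and against NRF ZT0 alone 1 and 7.

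All 20 aminoacyl-tRNA synthetases had a meal-end interval inside 1.5-fold, beside 86.4% of all genes, and their differences ran from -0.14 to 0.13. Mars1 and Hars were called higher, by 0.13 ± 0.05 and 0.13 ± 0.05, and both calls were lost against NRF ZT24 alone and under both other scalings. Kars, the lysyl-tRNA synthetase, had 80.4, 79.8, 82.5 and 83.1 CPM against 77.9 to 83.4 CPM (median 80.5), with overlap. At the same clock time 12 of the 20 were higher and 2 lower in DRF ZT12 than in NRF ZT12, beside 13% and 11.1% of all genes, and 20 intervals were inside 1.5-fold, beside 81.5% of all genes. Of 30 ribosome biogenesis genes, 6 rose and 1 fell at the meal end, beside 8.13% and 9% of all genes, and 29 had an interval inside 1.5-fold. Nop56, of the box C/D snoRNP, rose by 0.23 ± 0.06, and Mybbp1a and Pes1 had intervals of -0.06 to 0.10 and -0.03 to 0.13. Counted again, the rises numbered 2 without DRF ZT12 library 4, 3 without NRF ZT0 library 3 or NRF ZT24 library 1, and 0 with log2(TPM + 1) scaling. Of 15 ATF4 and amino acid response genes, 3 rose (background 8.13%), namely the transcription factors Atf4 (0.36 ± 0.07, adjusted p = 0.000316) and Cebpb (0.71 ± 0.16) and the mTORC1 inhibitor Ddit4 (0.59 ± 0.14). Psph, of serine synthesis, had an interval of -0.26 to 0.12. Of 16 immediate early genes, 4 rose and 4 fell, beside 8.13% and 9% of all genes. Against NRF ZT24 alone 2 of the rises and 4 of the falls were called again, beside 5.23% and 5.9% of all genes. Those called against NRF ZT24 and NRF ZT0 each on its own were 2 rises and 1 fall, beside 3.78% and 4.02% of all genes. The differences of the 16 ran from -0.80 to 0.82, with 6 above 0 and 10 below. Zfp36, an mRNA decay factor, had 38.5, 49.7, 47.9 and 63.4 CPM against 25.3 to 33.1 CPM (median 27.6), a difference of 0.80 ± 0.13 (adjusted p = 1.64e-05), and Ier3 rose by 0.82 ± 0.21. Jund and Klf4 had intervals of -0.13 to 0.21 and -0.13 to 0.24, and the 4 falls numbered 1 without DRF ZT12 library 2 or 4.

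A few genes of sodium and water handling rose at the DRF meal end, and proximal transporters fell no more often than all genes. Of 25 sodium transport genes, 6 rose, beside 8.13% of all genes, and 21 had an interval inside 1.5-fold, near the 86.4% of all genes. Besides Sgk1, Slc9a3 (NHE3), the proximal sodium-proton exchanger, had 163, 187, 170.3 and 176 CPM against 111 to 153 CPM (median 121), a difference of 0.50 ± 0.08 (adjusted p = 6.71e-06) and no overlap. Its scaffold Slc9a3r1 (NHERF1) rose by 0.37 ± 0.10 but not against NRF ZT24 alone (adjusted p = 0.0742), and Atp1b1, a subunit of the sodium pump, rose by 0.41 ± 0.06 at an assumed gene length. Oxsr1 and Bsnd had intervals of -0.13 to 0.07 and -0.19 to 0.17. Of 17 water and urea genes, 3 rose and 1 fell, the fall being Avpr1a (background 8.13% and 9%). Aqp1, the water channel of the proximal tubule and thin limb, had 1100.3, 1081, 1190.4 and 959 CPM against 648 to 1006 CPM (median 781), a difference of 0.43 ± 0.11 (adjusted p = 0.00494), with overlap. Slc6a6, the taurine carrier, and Aqp3 rose by 0.53 ± 0.10 and 0.41 ± 0.10, whereas Avpr2 overlapped with an interval of -0.35 to 0.27. Of 27 proximal transporters, 2 fell, beside 9% of all genes, and 21 had an interval inside 1.5-fold, below the 86.4% of all genes. Slc22a12 (URAT1), the urate carrier, had 569, 573, 705 and 584 CPM against 727 to 1057 CPM (median 908), a difference of -0.56 ± 0.11 (adjusted p = 0.000316), with no overlap, and Slc20a2, a phosphate carrier, fell with a difference of -0.13 ± 0.04. Slc6a19, a neutral amino acid carrier, had 259, 202, 159 and 254 CPM against 169 to 257 CPM (median 189.9) and 396 ± 103 CPM (SD) at NRF ZT12. With log2(TPM + 1) scaling 5 proximal transporters were lower, and with only the 12 libraries in the fit 3 were higher and 3 lower. The falls numbered 1 against NRF ZT0 alone. They also numbered 1 without DRF ZT12 library 1, 2 or 4, NRF ZT0 library 2 or 4, or NRF ZT24 library 1 or 3.

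In the vitamin D and phosphate list, Kl (klotho), the co-receptor for FGF23, had 709, 793, 692 and 833 CPM against 878 to 1137 CPM (median 1022), a difference of -0.44 ± 0.13 (adjusted p = 0.0142). The groups did not overlap, and the call was lost against NRF ZT24 alone (adjusted p = 0.0912) and without DRF ZT12 library 1 or 3. Cyp27b1, which makes active vitamin D, had 14.1, 4.03, 6.93 and 9.97 CPM against 1.59 to 5.06 CPM (median 3.47), a difference of 1.09 ± 0.36 (adjusted p = 0.0288), overlapping, and was not called against either NRF group alone. Fgfr1, a receptor for FGF23, rose by 0.15 ± 0.04, and Vdr had an interval of -0.27 to 0.17. Nfe2l2 (NRF2) was lower within 1.5-fold (-0.23 ± 0.05, adjusted p = 0.000676), Keap1 had an interval of -0.12 to 0.06, and Gclc was called higher (adjusted p = 0.0487) with DRF ZT12 library 3 at 1187 CPM against 445 CPM in the next. The Gclc call was lost without that library and against NRF ZT24 or NRF ZT0 alone. Of 18 cell cycle genes Wee1 rose and Mki67 and Top2a fell, with differences of -0.88 ± 0.27 and -0.73 ± 0.24, and both calls were lost without DRF ZT12 library 3 or 4 and against NRF ZT0 alone, and that of Top2a also against NRF ZT24 alone, with limma-voom and without NRF ZT24 library 1 or the one with no number. The background was 8.13% higher and 9% lower.

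**Figure D3:**
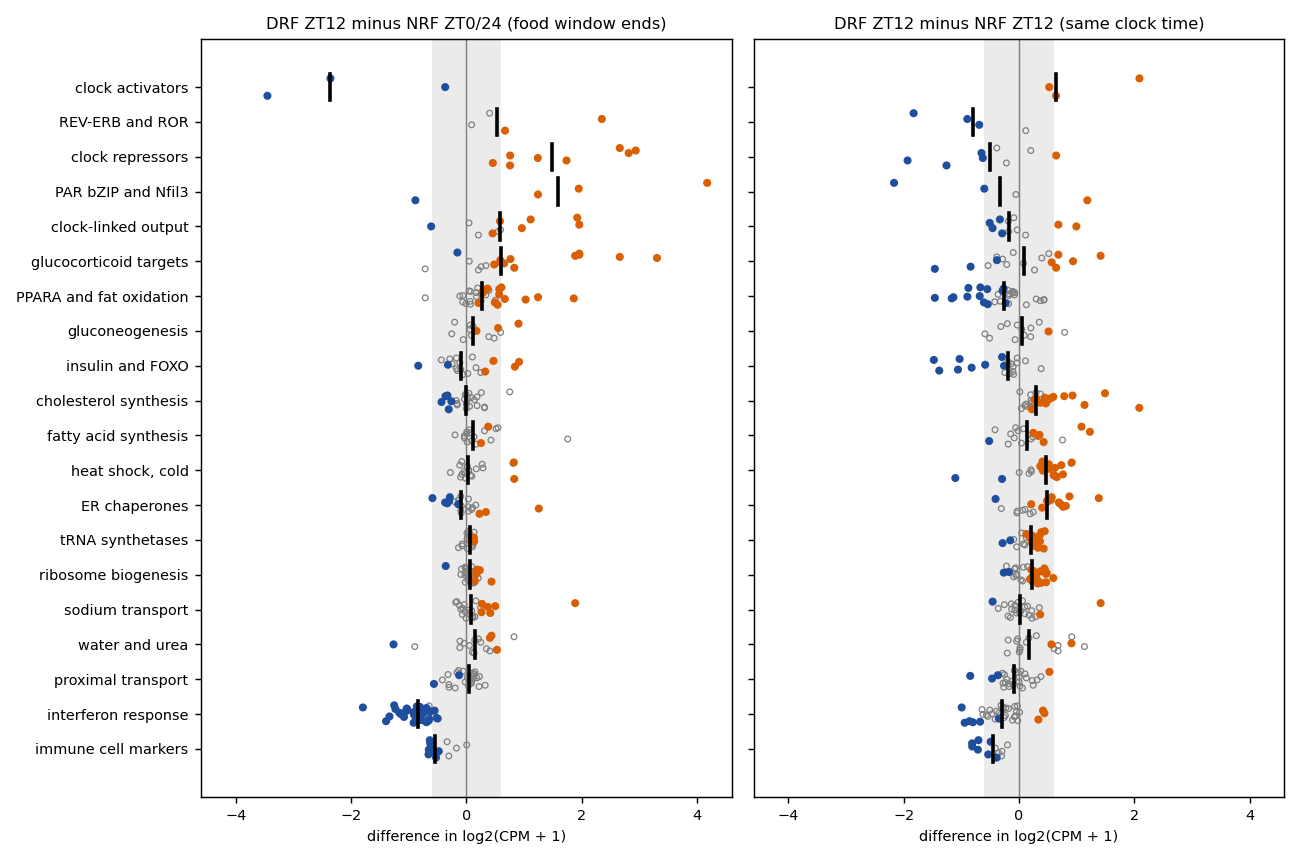
Difference in log2(CPM + 1) of each tested member of 20 gene lists (points, filled where called, open where not) with the list median (bar), for DRF ZT12 minus NRF ZT0/24 at the left and DRF ZT12 minus NRF ZT12 at the right, the grey band marking 1.5-fold. Both panels share the DRF ZT12 libraries. Clock repressors lie to the right of 0 at the meal end (median 1.49), and heat shock genes lie around 0 there (median 0.03) and to the right at the same clock time (median 0.46).

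Interferon-linked genes were lower in DRF ZT12, and NRF ZT0 stood far above NRF ZT24. Of 35 interferon response genes, 32 fell, beside 9% of all genes, with a list median of -0.86. But 4 of these were also called lower against NRF ZT24 alone, beside 5.9% of all genes, and the list median there was -0.38. Their summed level was 644 to 798 CPM in DRF ZT12, 887 to 1049 CPM in NRF ZT24 and 1723 to 2303 CPM in NRF ZT0, so the 3 groups did not overlap. DRF ZT12 minus NRF ZT0/24 was -759.8 CPM (exact 2-sided permutation test, p = 0.0303, adjusted over 10 lists 0.128). That test pooled NRF ZT0 and NRF ZT24, which did not overlap. DRF ZT12 minus NRF ZT24 was -237.6 CPM (exact 2-sided permutation test over 70 splits, p = 0.0286, not adjusted). DRF ZT12 minus NRF ZT0 was -1282 CPM (exact 2-sided permutation test over 70 splits, p = 0.0286, not adjusted). Irf7, the regulator of interferon genes, had 12.5, 10.3, 13.01 and 8.36 CPM in DRF ZT12, 17.8, 20.8, 15.8 and 22.8 CPM in NRF ZT24 and 85.1, 77.2, 100.4 and 76.1 CPM in NRF ZT0. Its difference was -1.80 ± 0.25 against both, -2.84 ± 0.29 (adjusted p = 5.67e-10) against NRF ZT0 and -0.75 ± 0.29 (adjusted p = 0.079951) against NRF ZT24, so it was not called against the latter. Ifit1 and Zbp1, an RNA-binding effector and a nucleic acid sensor, behaved likewise, with -0.33 ± 0.28 and -0.61 ± 0.27 against NRF ZT24. Lgals3bp and Rsad2 did differ from NRF ZT24, by -0.69 ± 0.20 (adjusted p = 0.0136) and -0.39 ± 0.11 (adjusted p = 0.00942). Gbp6, a guanylate-binding protein induced by interferon, had 15.4, 9.40, 11.6 and 11.6 CPM in DRF ZT12 against 35.3, 27.3, 33.6 and 53.5 CPM in NRF ZT24 and 131, 91.02, 96.8 and 47.4 CPM in NRF ZT0 (-1.54 ± 0.40, adjusted p = 0.00676 against NRF ZT24), and its reads were partly split with other sequences in the counting. NRF ZT24 minus NRF ZT0, a pair of groups of 1 regimen and 1 clock time, gave 100 called genes (0.756%), 39 higher and 61 lower at ZT24, and 24 of the 61 lower ones (0.461% of the genes tested) were in this list.

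Immune cell markers were also lower in DRF ZT12, and here NRF ZT24 stood above NRF ZT0. Of 12 markers tested, 8 fell, beside 9% of all genes. Against NRF ZT24 alone 8 were lower and against NRF ZT0 alone 3, beside 6.62% and 6.95% of all genes lower in those comparisons. Of the 8 that fell, 7 were called again against NRF ZT24 alone and 3 against NRF ZT0 alone, beside 5.9% and 6.26% of all genes. The summed level of the 16 markers was 64.2 to 80.1 CPM in DRF ZT12, 79.3 to 119 CPM in NRF ZT0 and 110.4 to 141 CPM in NRF ZT24. DRF ZT12 minus NRF ZT0/24 was -41.5 CPM (exact 2-sided permutation test, p = 0.00808, adjusted over 10 lists 0.0808). Ptprc (CD45), on all leukocytes, had 13.2, 10.1, 11.8 and 12.5 CPM in DRF ZT12 against 14.1 to 24.8 CPM (median 18.3), a difference of -0.64 ± 0.11 (adjusted p = 2.05e-05). Adgre1 (F4/80), on macrophages, fell with a difference of -0.66 ± 0.12 (adjusted p = 9.92e-05), and C1qa with -0.48 ± 0.15 (adjusted p = 0.0241). The T cell gene Cd3g was at 0.832, 0.691, 0.779 and 0.683 CPM in DRF ZT12 and 0.788, 1.22, 0.917 and 0.818 CPM in NRF ZT0, which overlap, and at 2.86, 3.10, 2.15 and 3.09 CPM in NRF ZT24. Ccl5 and Ms4a4b, other genes of T and NK cells, were likewise higher in NRF ZT24 than in NRF ZT0, by 1.59 ± 0.24 (adjusted p = 5.64e-05) and 1.58 ± 0.22 (adjusted p = 1.78e-05). In bulk tissue, fewer cells of a type and less RNA per cell cannot be told apart. The part of immune cell content in the interferon difference was not tested.

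**Figure D4:**
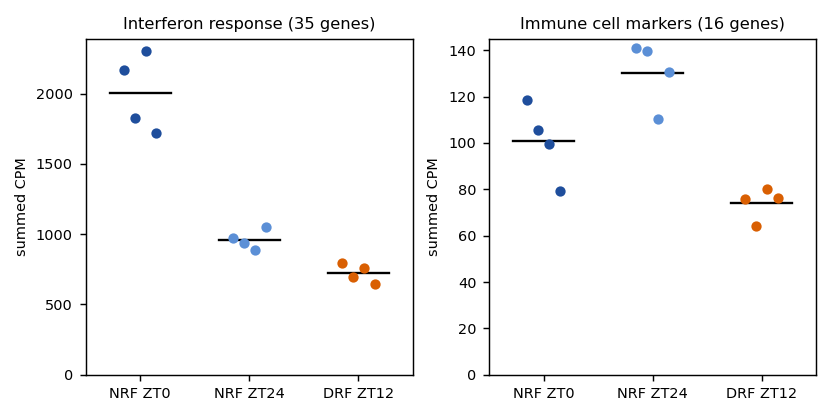
Summed CPM of 35 interferon response genes (left) and of 16 immune cell markers (right) in each library of NRF ZT0, NRF ZT24 and DRF ZT12, with the group mean as a bar. DRF ZT12 has the lowest interferon sums (644 to 798 CPM), and NRF ZT0 is highest on the left (1723 to 2303 CPM) whereas NRF ZT24 is highest on the right (110.4 to 141 CPM).

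The ends of the fast gave another match, which shares no library with the first: DRF ZT0/24 (n = 8) minus NRF ZT12 (n = 4), again at opposite light transitions. There 1598 genes (12.1%) differed, 890 higher and 708 lower in DRF. Across the 13223 genes the meal-end and fast-end differences had a Pearson correlation of -0.53 and a Spearman correlation of -0.34, given as a description because genes are not independent. Of the 1031 genes called at the meal end against NRF ZT24 and NRF ZT0 alone, 880 (85.4%) had the opposite sign at the end of the fast, beside 60.1% of all genes. The fast-end difference was called with the opposite sign for 454 of them and with the same sign for 8, beside 1340 and 258 of all 13223 genes. Clock genes led the first kind: Dbp went from 4.17 to -3.96, Per2 from 2.93 to -2.98 and Npas2 from -3.45 to 3.91. All 8 repressors and all 3 activators were called at the end of the fast, with the sign turned. Slc16a1 turned from -1.25 to 2.15, and Avpr1a, Loxl4 and Ypel2 likewise to 1.25, 1.83 and 1.65. Among the 8 genes with the same sign, named after their values were seen, Cyp4a14 and its neighbour Cyp4a10 were higher under DRF in both matches. Cyp4a14 differed by 1.03 ± 0.15 at the meal end and 1.05 ± 0.15 (adjusted p = 1.46e-06) at the end of the fast, where DRF ZT0/24 was at 1984 ± 445 CPM (SD, n = 8) and NRF ZT12 at 940.0 ± 72.9 CPM. Cyp4a10 differed by 0.67 ± 0.16 and 0.62 ± 0.16, and the 2 genes are close paralogs whose reads the counting could have shared. The others were Slc45a3, Hmgb3, Atg14, Zrsr1, Phf23 and Klc2, with meal-end differences of 0.55, 0.27, -0.35, 0.21, 0.26 and 0.18, and the Zrsr1 reads were partly split in the counting. Sgk1 had no called difference at the end of the fast (-0.59 ± 0.28, adjusted p = 0.181), nor did Irf7 (0.12 ± 0.25, adjusted p = 0.827).

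**Figure D5:**
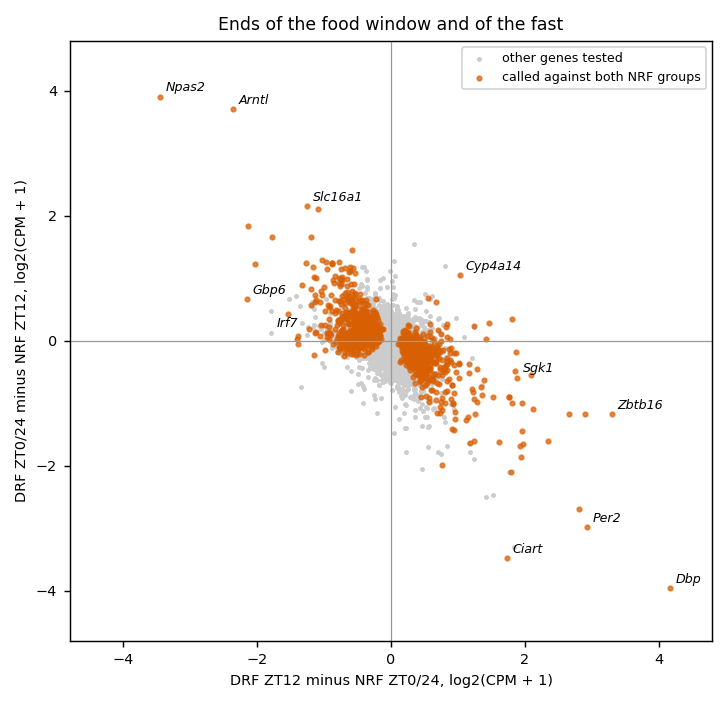
Difference in log2(CPM + 1) of each gene tested at the end of the food window (x, DRF ZT12 minus NRF ZT0/24) and at the end of the fast (y, DRF ZT0/24 minus NRF ZT12), with genes called at the meal end against both NRF groups in orange. The orange genes lie mostly in the upper left and lower right, 880 of 1031, and Cyp4a14 lies in the upper right.

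The libraries were alike in depth, with effective sizes of 24.9 M to 28.1 M reads (M for 1000000) and 581 to 816 genes listed at 0. All 17 kidney markers were listed, and their summed level of 28362 to 41228 CPM overlapped between the groups. Cortex and medulla markers overlapped too, with exact permutation p of 0.471 and 0.699 for the summed levels, as did liver (0.937), pancreas (0.210) and adipose markers (0.327). The adipose sum ran from 97.8 to 511 CPM in DRF ZT12 and from 72.8 to 569 CPM in NRF ZT0, so single libraries carried more of these genes. Blood markers summed to 721 to 1454 CPM in DRF ZT12, 475 to 652 CPM in NRF ZT0 and 775 to 2318 CPM in NRF ZT24. The 5 adrenal markers listed summed to 5.52 to 6.49 CPM in DRF ZT12 and 5.12 to 5.98 CPM in the NRF libraries (exact permutation p = 0.0384, adjusted 0.128), and Cyp11b1 and Cyp11b2 were not analysed here. The part of these tissues in any difference above was not tested.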

How the data were processed

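Total poly(A) RNA of kidney was sequenced as paired 100-base reads on BGISEQ-500, and the submitters' processing notes name HISAT2, Bowtie2, RSEM and the builds mm10 and GRCm38.p6 with no version of the tools. The authors deposited 1 table of 17027 genes in 56 libraries, named TPM. Its values, taken here as a score, were in all libraries proportional to log2(1 + scaled reads) divided by gene length, so each deposited value was turned back into reads with gene lengths from GENCODE M21, or with a length found by search. Of the genes, 97.2% were recovered, and 98.8% of their values came within 0.05 to 0.15 of a whole read where whole reads were expected. Whole reads were expected of genes with at least 50% of values whole, or 80% at a length found by search. The 98.8% is therefore no independent check of the recovery. Genes whose reads came out in hundredths (RSEM shares reads among similar genes) were kept and are named as uncertain. CPM is reads per 1000000 (M) of the library's effective size, the scaling constant of its values, and depth was 24.2 M to 25.4 M recovered reads in the 12 libraries.

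Genes with a mean CPM of at least 1 over 56 libraries were tested on log2(CPM + 1) with limma 3.58.1 (R 4.3.3, mean-variance trend, 14 groups, Benjamini-Hochberg). Genes whose reads came out neither whole nor in hundredths were left out unless they were in a gene list. The plan had named all genes with a length, annotated or found by search. That set was run as an alternative added after seeing the data. NRF ZT0 and NRF ZT24 had equal weight. The model was tested on simulated data. Marker sums were compared by exact 2-sided permutation tests (scipy 1.17.1). No pair of libraries in a group differed by as little as counting noise. Groups come from the labels, which number the libraries. The deposited values of 1 NRF ZT24 library carry a number that is in no sample title, so its group came from its column name. The title numbered 4 in NRF ZT24 has no column of that number. This library is called here the one with no number. Named genes were all tested clock genes, the 12 largest rises and falls called in all 3 comparisons without overlap at a mean of 10 CPM or more, up to 4 called and 2 narrowest members of each other list, the 3 genes of 100 CPM or more moving most between NRF ZT12 and NRF ZT0/24 in each direction while inside 1.5-fold at the meal end, and the 3 largest rises and falls from NRF ZT0 to NRF ZT24. A few genes that met the rule are not reported here. Other genes named to complete a list were chosen after their values were seen. The comparison, its members and the gene lists were chosen with earlier results of these data known. Alternatives covered scaling, pseudocount, filter, tool, libraries in the fit, each library left out, each NRF group alone and the replicate block.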

Additional observations from a re-analysis of the deposited data

Results flagged for a closer look

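In groups of 4 libraries, a value was singled out where its gap to the nearest other library took a larger share of the group's range than Dixon's 95% critical value for 4 samples. Of 462 groups of 4, from 154 genes in 3 groups, 35 (7.58%) met this, and chance alone marks about 1 in 20. In DRF ZT12, library 1 stood high for Ccl5 (2.27 CPM) and low for Sel1l (122 CPM). In DRF ZT12, library 3 stood high for Slc22a12 (705 CPM), Fos (0.853 CPM) and Gclc (1187 CPM). In DRF ZT12, library 4 stood high for Ppard (53.7 CPM), Slc16a1 (61.8 CPM) and Hspd1 (668 CPM) and low for Gpr146 (40.4 CPM). In NRF ZT0, library 1 stood high for Myc (8.63 CPM), Fabp4 (158 CPM) and Scd2 (359.8 CPM) and low for Aqp7 (14.7 CPM). In NRF ZT0, library 2 stood high for Pdia6 (248 CPM) and Gclc (445 CPM) and low for Foxo1 (66.9 CPM). In NRF ZT0, library 3 stood high for Susd3 (24.97 CPM), Slc6a6 (377 CPM) and Slc6a19 (257 CPM) and low for Atf6 (79.5 CPM). In NRF ZT0, library 4 stood high for Per1 (21.4 CPM) and low for Kl (878 CPM) and Slc22a6 (400.0 CPM). In NRF ZT24, library 1 stood high for Loxl4 (55.6 CPM), Usp2 (78.6 CPM) and Gpr146 (49.6 CPM). In NRF ZT24, library 2 stood high for Fabp4 (105 CPM) and low for Gclc (247 CPM). In NRF ZT24, library 3 stood high for Ppargc1a (120.0 CPM) and low for Adgre1 (8.07 CPM) and Lyz2 (24.7 CPM). In NRF ZT24, the library with no number stood high for Vdr (365 CPM), Cdkn1a (19.4 CPM), Apoc3 (39.2 CPM) and Slc4a1 (135 CPM). The most in any library was 4, in each of 4 libraries, among them DRF ZT12 library 4, and the calls of Ppard and Slc16a1 held without that one.

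The NRF groups at the same clock time, a day apart, differed by limma's contrast in 9 of the named genes, so DRF ZT12 stood at another distance from each. Log2 differences of NRF ZT24 minus NRF ZT0 were -2.08 for Irf7 (adjusted p = 1.78e-05), -1.84 for Ifit1 (4.62e-05), -1.46 for Zbp1 (0.000922), -1.40 for Lgals3bp (1.78e-05) and -0.65 for Ifih1 (0.000189), all interferon-linked. They were 1.69 for the globin gene Hbb-bt (adjusted p = 0.020005), 1.59 for Ccl5 (5.64e-05), 1.58 for Ms4a4b (1.78e-05) and 0.97 for Cd3g (0.00163), genes of red cells and T or NK cells. Part of the Hbb-bt reads was split with other sequences in the counting.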

How the results depend on the processing

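Of 154 named genes, each run under every alternative in which it was tested, 3626 of 3834 values kept their direction and their side of the threshold, 202 lost the call, 5 gained one and 1 changed sign. That one was Ms4a4b, whose difference against NRF ZT0 alone was 0.0842. The total of 2265 meal-end calls was 2196 with limma-voom, 2240 with median-of-ratios scaling, 2274 with a pseudocount of 0.1 CPM, 1919 with a mean CPM of at least 5, 2284 with no filter, 2063 with whole-read genes alone and 2774 with only the 12 libraries in the fit. Log2(TPM + 1) scaling gave 2255 (552 higher, 1703 lower), of which 1688 were shared with the main calls, and 371 higher against NRF ZT24 alone, 487 higher against NRF ZT0 alone and 954 higher at the same clock time, so the numbers of higher genes depended on scaling. Adding a 1.5-fold minimum left 446 (167 higher, 279 lower) at the meal end, 424 (158 higher, 266 lower) against NRF ZT24 alone, 432 (172 higher, 260 lower) against NRF ZT0 alone, 425 (146 higher, 279 lower) at the same clock time and 288 (138 higher, 150 lower) at the end of the fast.

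Leaving out 1 library at a time gave 1526 to 2220 meal-end calls (663 to 1038 higher, 863 to 1182 lower), 1045 to 1636 against NRF ZT24 alone (431 to 750 higher) and 583 to 895 higher against NRF ZT0 alone, with the lowest count of higher genes in each case without DRF ZT12 library 4. NRF ZT24 minus NRF ZT0 gave 59 to 99 calls (21 to 45 higher, 34 to 69 lower) with 1 library left out, and 49 (10 higher, 39 lower) at a mean CPM of at least 5, where fewer genes were tested, and 40 lower with whole-read genes alone. Its total fell by over 1.5 times without NRF ZT0 library 3 (59) and without NRF ZT24 library 1 (64). The adrenal sum differed by 0.387 to 0.711 CPM with 1 library left out and missed the threshold in 8 of 12 such runs, and the adipose sum, 40.9 to 179 CPM, passed it without NRF ZT0 library 1 (172 CPM).

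With the replicate number as a block, on the 11 numbered libraries of the match, the meal-end calls were 1608 (742 higher, 866 lower), against 2535 for the same libraries with no block. The block gave 729 (348 higher, 381 lower) against NRF ZT24 alone and 57 (10 higher) for NRF ZT24 minus NRF ZT0. Same-numbered libraries had correlations of their deviations from -0.48 to 0.25, so the numbers were not taken as pairs. The cause of these changes was not tested.

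Depth was alike in the 12 libraries. Genes at under 3 CPM in a group, such as Cd3g in DRF ZT12 and Ciart in NRF ZT0/24, rest on few reads there, and log2(CPM + 1) understates their folds. Intervals cover the spread between libraries, 4 per group.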
